A study of Mus musculus with 4 samples.

Results

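The genes of 8 hormones, receptors and enzymes of the thyroid and stress axes, Trh, Trhr, Trhde, Tshr, Tshb, Cga, Crh and Crhr1, were followed across the annotated cell types of the adult mouse hypothalamus. They were taken as a named list from the 32285 genes of the deposited tables. Their unique molecular identifiers (UMIs, each standing for a captured transcript) were summed per library over every annotated cluster and sub-cluster, and nuclei with 3 or more UMIs of Trh, Crh or Cga were counted. Such nuclei numbered 868 for Trh, 42 for Crh and 101 for Cga among 56386 annotated nuclei.

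Single-nucleus RNA sequencing had been run on snap-frozen hypothalamus of adult male C57/BL6NCr mice, either wild type (WT) or heterozygous for the R384C exchange in thyroid hormone receptor α1 (TRα1+m). No treatment is given for the animals of either genotype. A library held nuclei pooled from 3 mice, and 2 independent experimental repeats each contributed 1 WT and 1 TRα1+m pool, which left n = 2 pools per genotype. The mutation exchanges a single amino acid, and the level of Thra therefore need not tell the genotype of a library. The questions were in which cells the axis genes were transcribed, and whether their transcript levels differed between the genotypes.

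Thyrotropin-releasing hormone, encoded by Trh, is made by neurons of the paraventricular nucleus and drives the release of thyrotropin from the pituitary. Thyroid hormone represses Trh and both subunits of thyrotropin, which closes the feedback loop of the thyroid axis. Corticotropin-releasing hormone, encoded by Crh, has the same place at the head of the stress axis. Tanycytes, the glial cells lining the floor of the ventricle, carry the enzyme that degrades released TRH, and thyrotropin made in the pars tuberalis is known to signal to them.

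In the mouse genome (build GRCm38, GENCODE M21), Trh lies at chr6:92242061-92244650 on the minus strand, Trhr at chr15:44196135-44235912 on the plus strand and Trhde at chr10:114398823-114802307 on the minus strand. Tshr is found at chr12:91384563-91549808 (plus), Tshb at chr3:102775465-102782718 (minus) and Cga at chr4:34893779-34907370 (plus). Crh spans chr3:19693401-19695396 (minus) and Crhr1 chr11:104132855-104175523 (plus). Trhde and Tshr have close neighbours on the other strand. 4930473D10Rik lies wholly inside Trhde and Gm15723 overlaps its start, both antisense, and Cep128 starts 154 bases from Tshr in the opposite direction. Introns were counted, and the strand setting of the counting was not given in the sources used here. Reads of Trhde and of its antisense neighbours could therefore not be told apart with certainty. Cep128 and Tshr do not overlap in the annotation.

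The 250 bases upstream of the start were taken from the RefSeq promoter table (GRCm38.p6), which held 5 of the 8 genes, namely Trh, Trhde, Tshb, Cga and Crhr1. The sequences of Trh and Cga are shown because both genes are classical targets of repression by thyroid hormone and because their windows held a copy of the nuclear receptor half-site AGGTCA, which is in capitals and reads TGACCT on the opposite strand. The Trh window is chr6:92244651-92244900 on the minus strand and that of Cga chr4:34893529-34893778 on the plus strand.
Trh: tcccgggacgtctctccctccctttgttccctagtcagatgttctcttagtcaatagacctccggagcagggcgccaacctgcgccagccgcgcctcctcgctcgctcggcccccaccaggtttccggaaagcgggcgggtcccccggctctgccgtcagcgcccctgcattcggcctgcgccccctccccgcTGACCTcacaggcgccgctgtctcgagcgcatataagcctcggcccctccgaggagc
Cga: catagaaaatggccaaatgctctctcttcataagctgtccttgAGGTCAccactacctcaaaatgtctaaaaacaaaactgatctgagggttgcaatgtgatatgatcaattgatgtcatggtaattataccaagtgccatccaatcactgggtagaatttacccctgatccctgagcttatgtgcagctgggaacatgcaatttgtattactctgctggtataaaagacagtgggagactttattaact
The half-site began 57 bases upstream of the start of Trh and 207 bases upstream of that of Cga. AGGTCA, read on both strands, was present in 14% of 32851 windows of the same table, and the cyclic AMP response element TGACGTCA in 1.55%. Neither motif was found in the windows of Trhde, Tshb and Crhr1. No binding was measured in these data, and a match is a match of letters.

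The 4 libraries were of similar depth, with medians between 2904 and 4018 UMIs per annotated nucleus, higher in repeat 2 than in repeat 1 for either genotype. Of 68190 deposited barcodes, 11804 were not annotated, and 309 barcodes occurred in more than 1 library, which touched 618 nuclei. The cluster Neurons_2 consisted of 864 nuclei, of which 852 came from TRα1+m repeat 2, and it was left out of the tests and of the order of levels, which covers 17 groups. Its 852 nuclei held 70.4 CPM of Trh, 501 CPM of Trhde (1410 UMIs) and 97.4 CPM of Crhr1 (274 UMIs), in a single library. A Trhde UMI was found in 54.8% of them and a Crhr1 UMI in 22.5%. All levels are given as UMIs of the gene per 1e+06 UMIs of the cell group (CPM), and the mean ± SD is over libraries. The clusters had been made from all genes of these nuclei, so that the order of cell groups is a description without a test. Levels were not compared between genes.

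Trh was concentrated in 1 of the 17 groups, a neuronal sub-cluster. In Glutamatergic Neurons_1 it stood at 119 CPM in WT repeat 1, 422 in WT repeat 2, 115 in TRα1+m repeat 1 and 565 in TRα1+m repeat 2 (305 ± 225 CPM, n = 4), above all other groups in every library. The libraries of repeat 2 were the high ones in both genotypes. Next came MCH Neurons with 45.6 ± 21.6 CPM and oligodendrocytes with 38.7 ± 14.5 CPM, and from there on each group overlapped its neighbour in the order. A Trh UMI was found in 20.6 to 30.9% of Glutamatergic Neurons_1 nuclei (median depth 3995 to 5832 UMIs), and in 3.26 to 8.17% of oligodendrocytes (1493 to 1811.5 UMIs), which are not known to make the hormone. Shares in other neuronal sub-clusters lay in or near that range, for example 4.72 to 7.72% in GABA Neurons and 5.70 to 10% in MCH Neurons (1481 to 3840 UMIs), and from these shares alone a low level of Trh there could not be told from free RNA. Free RNA was not measured, and 69 GABA and 19 MCH Neurons had 3 or more Trh UMIs. 5 genes followed the pattern of Trh most closely over 17 cell groups, by Pearson's r of log2(CPM + 1) among 14055 genes. They were Gm28526 (r = 0.82), Pmch (0.72), Gm12082 (0.70), Islr2 (0.69) and Rpp21 (0.59).

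**Figure D1:**
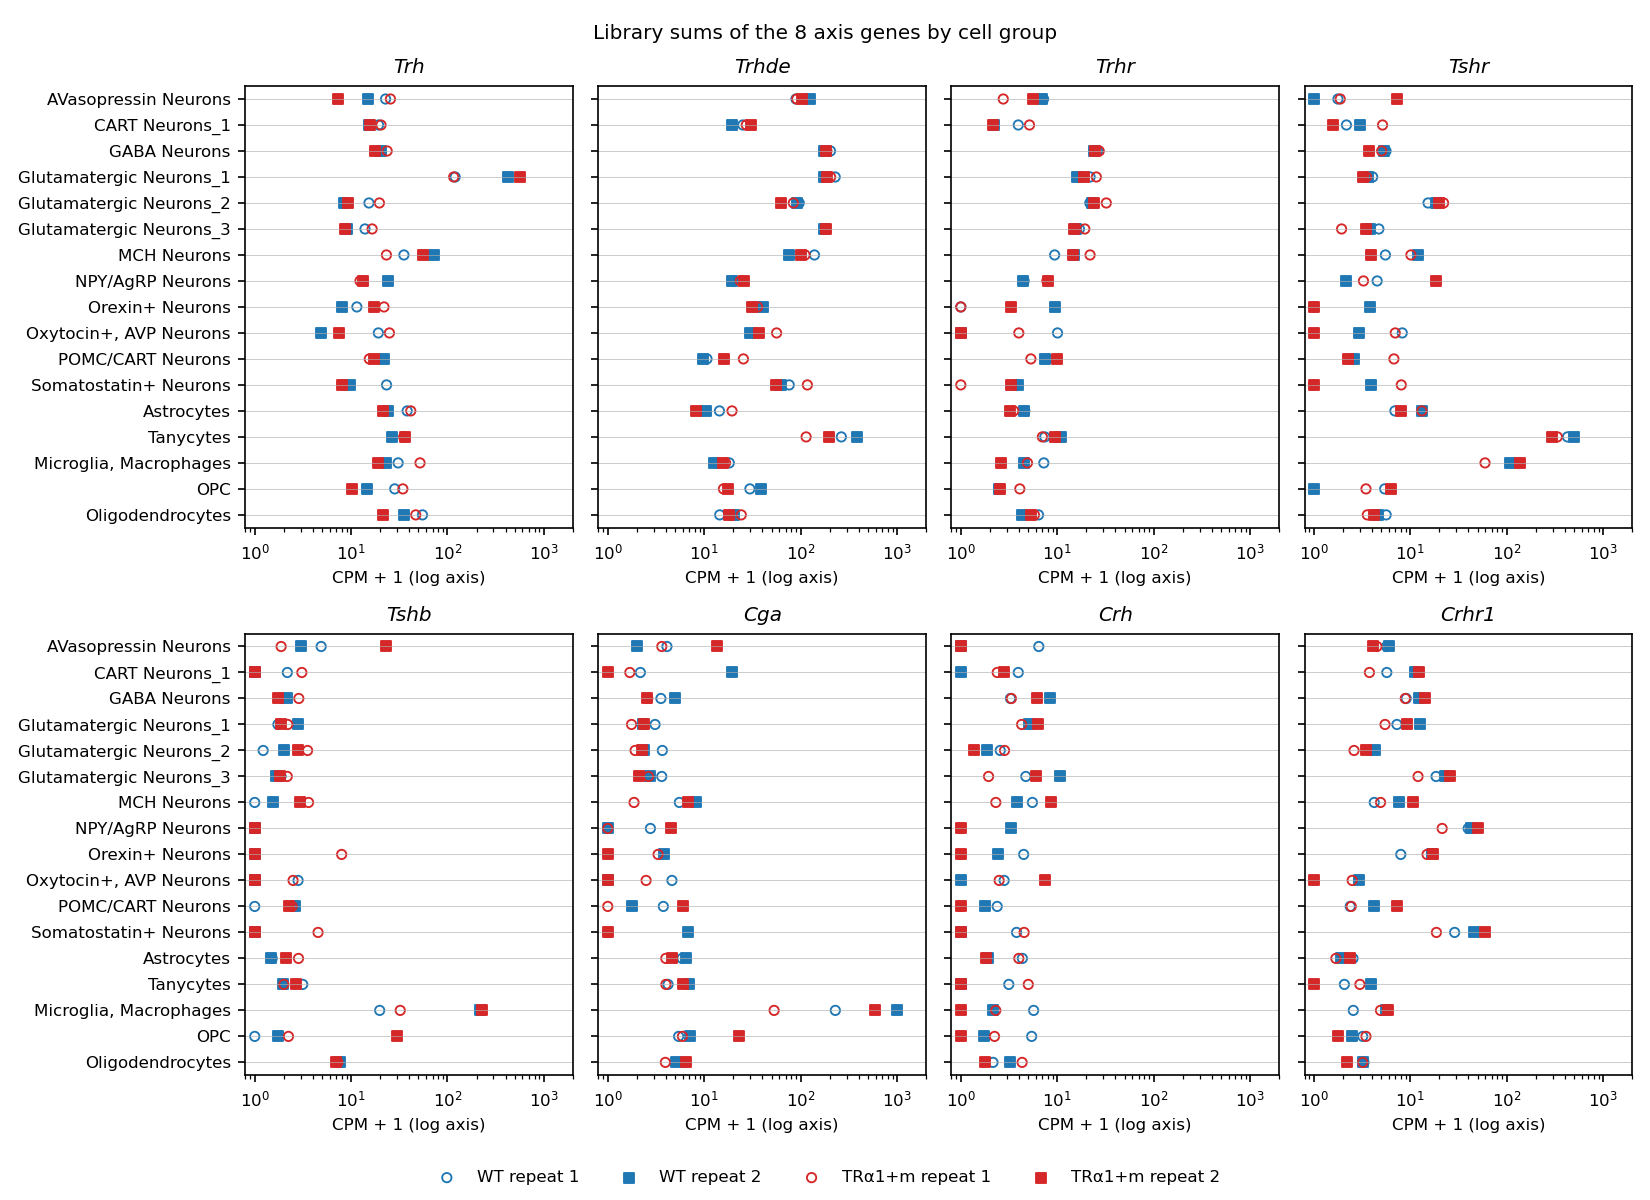
Levels of the 8 axis genes in 17 cell groups, with the level of each library as CPM + 1 on a log axis (WT blue, TRα1+m red, open circles repeat 1, filled squares repeat 2). Trh stood out in Glutamatergic Neurons_1, Tshr in tanycytes, and Cga and Tshb in the microglia and macrophage cluster. In that cluster the squares of repeat 2 lay right of the circles of repeat 1 for Cga and Tshb. Trhde was high in tanycytes and in several neuronal groups, with overlapping ranges.

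The TRH receptor gene Trhr, which couples to calcium signalling, was spread over many neurons. It was highest in GABA Neurons (25.2, 23.1, 26.3 and 23.8 CPM in WT repeats 1 and 2 and TRα1+m repeats 1 and 2) and in Glutamatergic Neurons_2 (20.8, 22.0, 31.3 and 23.3 CPM), and these groups did not differ beyond their spread. Glutamatergic Neurons_1 followed with 19.6 ± 4.05 CPM and Glutamatergic Neurons_3 with 15.8 ± 1.89 CPM. Trhr UMIs were found in 7.82 to 9.61% of GABA Neurons and in 0.637 to 0.853% of oligodendrocytes. Glra1, which encodes a glycine receptor subunit, was the gene most like Trhr (r = 0.91), ahead of Gm12236 (0.89), Gm44618 (0.85), Hs3st2 (0.82) and Deup1 (0.82).

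Trhde, which encodes the TRH-degrading ectoenzyme, was high both in tanycytes and in a broad set of neurons. Among the 17 groups, tanycytes held 240 ± 116 CPM, Glutamatergic Neurons_1 198 ± 23.2, GABA Neurons 187 ± 12.3 and Glutamatergic Neurons_3 178 ± 4.26, and neighbours in this order overlapped. MCH Neurons came after a gap with 106 ± 26.4 CPM. Astrocytes in the narrow sense held 12.2 ± 4.90 CPM, so that 81.3% of the Trhde UMIs of the whole astrocyte cluster belonged to its tanycytes. The antisense genes of the locus, 4930473D10Rik (r = 0.98) and Gm15723 (0.91), followed Trhde most closely, ahead of Zbbx (0.78), Vmn2r87 (0.77) and Elmod1 (0.75).

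Tshr, the thyrotropin receptor gene, marked tanycytes more sharply. It reached 427 and 498 CPM in the WT libraries and 335 and 294 CPM in the TRα1+m libraries of repeats 1 and 2, and a Tshr UMI was present in 42.9 to 57.3% of tanycytes. The next group was the microglia and macrophage cluster (108 ± 35.6 CPM), followed by Glutamatergic Neurons_2 (18.1 ± 2.89 CPM) and astrocytes (9.36 ± 3.36 CPM), and the ranges of the first 4 groups did not overlap. Tanycytes held 90.2% of the Tshr UMIs of the astrocyte cluster. Slc43a3, Armc3, Traf1, Lrrc71 and Prr3 were the most alike, each with r of 0.90.

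Crh was scarce. Its highest mean was 4.84 ± 3.68 CPM in Glutamatergic Neurons_3, and no group exceeded 9.75 CPM in any library. At this level all neighbouring groups in the order overlapped, and Crh was left out of the search for genes of like pattern. The gene of its receptor, Crhr1, was highest among the 17 groups in NPY/AgRP Neurons (38.9, 41.5, 20.4 and 49.3 CPM in WT repeats 1 and 2 and TRα1+m repeats 1 and 2) and in Somatostatin+ Neurons (27.9, 45.2, 17.7 and 58.8 CPM). The NPY/AgRP and Somatostatin+ groups overlapped in range, and in both the lowest value was that of TRα1+m repeat 1. Glutamatergic Neurons_3 came next with 18.9 ± 6.01 CPM. The genes most like Crhr1 were Epha3 (r = 0.88), Ddx10 (0.79), Ice1 (0.79), Nsf (0.78) and Ankdd1a (0.78).

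Cga and Tshb encode the α subunit shared by the glycoprotein hormones and the β subunit of thyrotropin. Both were highest in the microglia and macrophage cluster, where Cga stood at 229 CPM in WT repeat 1, 1007 in WT repeat 2, 52.2 in TRα1+m repeat 1 and 592 in TRα1+m repeat 2. Tshb stood at 18.8, 218, 31.3 and 229 CPM in the same order. The libraries of repeat 2 were several-fold above those of repeat 1 for both subunits. In the other groups Cga stayed at or below 22.1 CPM and Tshb at or below 28.9 CPM. Over the 17 groups Clec4a2 (r = 0.97), Gm13479 (0.97), Tmem119 (0.96) and Ctss (0.96) were among the genes most like Cga. Tshb was most like Rnf216 (0.95), Hps3 (0.94), Pwwp2a (0.93), Bcl2a1b (0.92) and Cga (0.92). Such correlations compare sums of whole groups and do not show that the genes share a nucleus.

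Most subunit UMIs of that cluster came from a small set of its nuclei. In all, 83 of the 101 nuclei with 3 or more Cga UMIs carried the microglia and macrophage label, 15 and 41 in the WT libraries and 5 and 22 in the TRα1+m libraries, which was 4.67% of the nuclei of the cluster. They held 96.5% of its Cga UMIs, 78.6% of its Tshb UMIs and 79.3% of its Tshr UMIs. A Tshb UMI was found in 56 of them, a Tshr UMI in 61 and both in 46. Of the 1654 nuclei of the cluster without Cga and Tshb, 1.09% had a Tshr UMI, at a median depth of 1416.5 UMIs against 2321 in the Cga nuclei. The whole cluster held 58.7 to 138 CPM of Tshr in the 4 libraries, and without the Cga nuclei it held 7.11 to 42.4 CPM.

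Cga chose these nuclei, and their other genes are given as a description. All 7 genes listed as markers of the pars tuberalis, the part of the pituitary that wraps the stalk, were detected. Cga and Tshb are on that list, and the sum of the other 5 genes was 840 to 2093 CPM in the 4 libraries against 68.9 to 104 CPM in nuclei of the cluster without Cga and Tshb UMIs. Pitx1, a pituitary transcription factor, stood at 166 to 496 CPM against 1.82 to 5.47. The melatonin receptor gene Mtnr1a was at 73.3 to 249 CPM against 0 to 1.72. Eya3, a regulator known to respond to day length in the pars tuberalis, stood at 140 to 679 against 53.4 to 81.7 CPM, and its level in the comparison nuclei was near that in Neurons_1 (78.8 to 83.2 CPM). Of the 10 genes listed for pituitary hormone cells 6 were detected, among them Pitx1, which is on both lists. The sum of the list, which includes Pitx1, was 331 to 991 CPM against 51.7 to 651 CPM in the comparison nuclei. Pou1f1, Gh and Prl, which mark hormone cells of the anterior lobe, were among the genes at 0 in the Cga nuclei. The 5 microglial markers together reached 36.7 to 166 CPM, against 3011 to 10124 CPM in the other nuclei of the cluster, and C1qa was at 0. The microglial label of the cluster went against the markers of these 83 nuclei, which are called by their leading gene. The 10 nuclei with 10 or more Tshb UMIs all held a Cga UMI, 9 of them 3 or more, and 8 of them carried the microglia and macrophage label. The highest, of TRα1+m repeat 2, held 61 Tshb and 2 Cga UMIs.

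**Figure D2:**
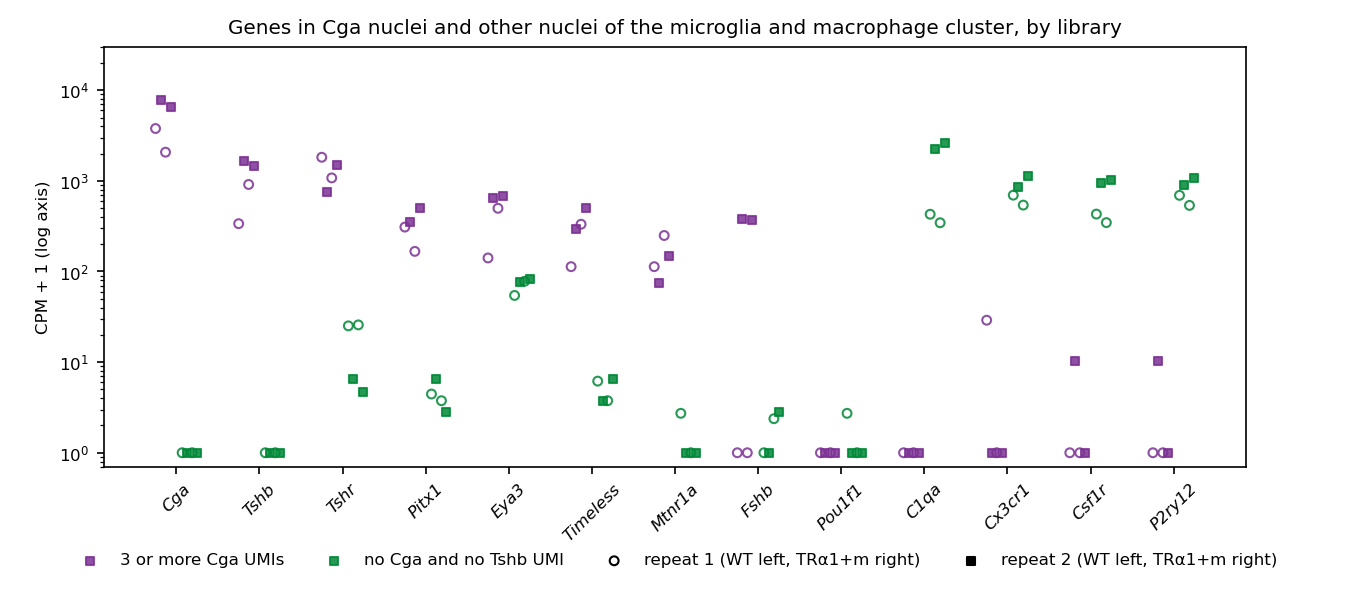
Levels of pars tuberalis, pituitary and microglial genes (CPM + 1, log axis) in nuclei of the microglia and macrophage cluster with 3 or more Cga UMIs (purple) and in those without Cga and Tshb UMIs (green), with 1 point per library. Pitx1, Timeless and Mtnr1a were high in the purple nuclei of all 4 libraries, whereas C1qa was at 0 in them.

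Nuclei with 3 or more UMIs of a hormone gene were then compared between the genotypes. Trh nuclei numbered 133 and 289 in the WT libraries and 149 and 259 in the TRα1+m libraries among Neurons_1 nuclei. This was 1.39% (95% exact binomial interval 1.17 to 1.65), 3.30% (2.94 to 3.70), 1.40% (1.19 to 1.65) and 3.80% (3.35 to 4.28), respectively. The genotypes overlapped in range (2.35 ± 1.35% against 2.60 ± 1.69%, n = 2 each, p = 0.667 by a two-sided exact permutation test, in which 2 against 2 libraries cannot go below 0.333), and the repeats did not. Crh nuclei were 5 and 23 in WT and 1 and 12 in TRα1+m among Neurons_1 nuclei (0.158 ± 0.149% against 0.0926 ± 0.118%, exact permutation p = 0.667). Cga nuclei among all annotated nuclei were 18 and 49 in WT and 5 and 29 in TRα1+m (0.245 ± 0.173% against 0.136 ± 0.150%, exact permutation p = 0.667). In each repeat the TRα1+m library had fewer Crh and fewer Cga nuclei than its WT partner, and the ranges of the genotypes overlapped. Intervals and floors cover counting error only.

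**Figure D3:**
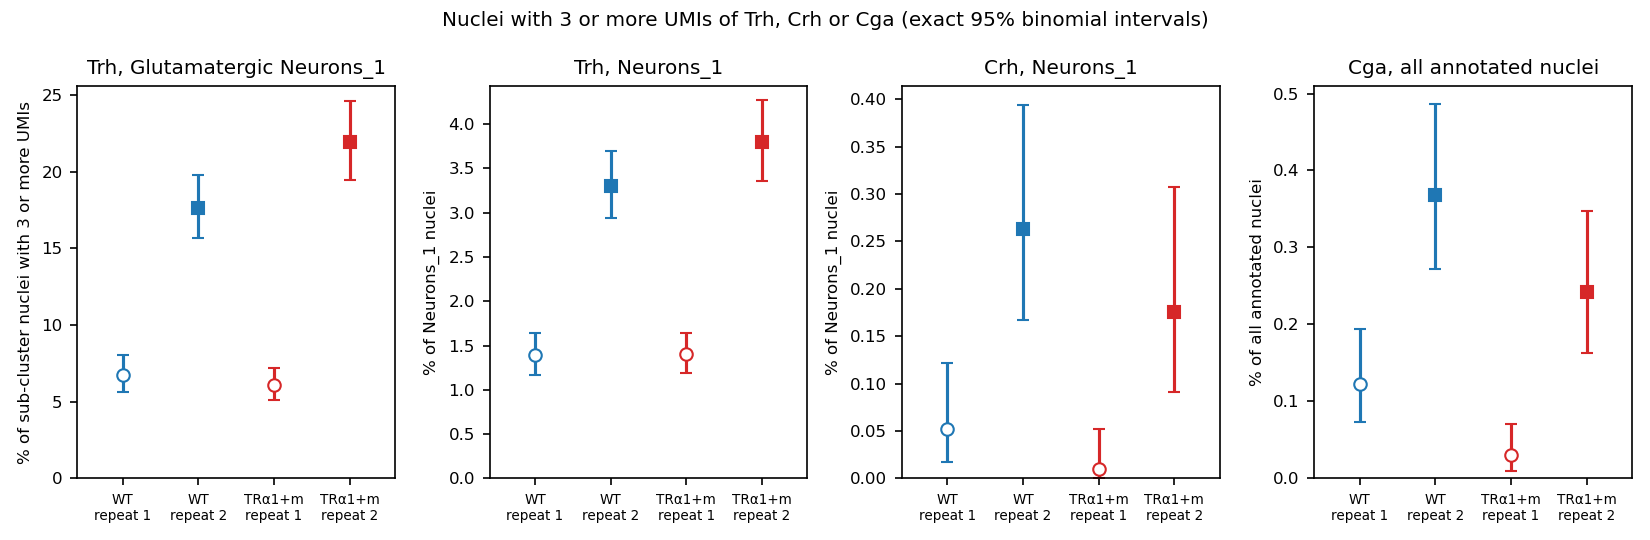
Share of nuclei with 3 or more UMIs of Trh, Crh or Cga in each library, as a percentage of the population named above each panel, with exact 95% binomial intervals. Within repeat 1 WT and TRα1+m lay close together for Trh in Neurons_1 (1.39 and 1.40%), and both libraries of repeat 2 lay above both of repeat 1 in all 4 panels.

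Most of the Trh nuclei, 709 of 868 (81.7%), belonged to Glutamatergic Neurons_1, and 69 were GABA Neurons. Within Glutamatergic Neurons_1 the share was 6.75 and 17.7% in WT and 6.07 and 22.0% in TRα1+m. The higher share of repeat 2 came with more Trh per positive nucleus, with a median of 10 UMIs in both libraries of repeat 2 and 4 in both of repeat 1. Nuclei of at least 2000 UMIs (1716 of 1762 and 1317 of 1331 in WT, 2036 of 2091 and 1030 of 1038 in TRα1+m) were also thinned to 2000 UMIs each, where the shares were 1.98, 10.4, 2.26 and 13.6%, so that repeat 2 stayed above repeat 1 at equal depth. A nucleus of WT repeat 2 held 128 Trh UMIs, the highest number in the series. Among barcodes outside the annotation, 18, 53, 22 and 53 had 3 or more Trh UMIs in the 2 WT and the 2 TRα1+m libraries.

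The axis genes were tested between genotypes with edgeR's quasi-likelihood F-test on library sums, with Benjamini-Hochberg adjustment over all genes of a cell type. None of 26 tests of the 8 genes in 5 main cell types passed an adjusted p of 0.05. Of these tests 4 (15.4%) had an unadjusted p under 0.05, against 2.22% over all genes, and DESeq2 called 0 as well. Over all genes 0.0188% of tests passed the adjusted p. In 14 sub-clusters 0 of 53 tests passed with edgeR and with DESeq2, 3 (5.66%) had an unadjusted p under 0.05 against 1.72% over all genes, and 0.00310% of all tests passed the adjusted p. In simulated data of this size 2-fold changes were recovered for 22% of genes in Neurons_1 and 7% in tanycytes, and 4-fold changes for 94% and 59%, which limits what a missing call says. All genes of a cell group had the same noise level there, estimated without the repeat. No repeat effect was simulated and the fit with a block was not tried, so the recovery for a given gene can differ. For the hormone itself, Trh in Neurons_1 was at 37.6 and 86.5 CPM in WT and 40.3 and 106 CPM in TRα1+m (log2 fold change 0.17 ± 0.57 SE). Crh in Neurons_1 was at 2.93 and 4.72 against 2.13 and 3.93 CPM (-0.41 ± 0.40 SE), lower in the TRα1+m library of each repeat. Crhr1 was at 8.11 and 11.6 against 6.38 and 12.4 CPM (-0.14 ± 0.37 SE), and Trhr at 19.5 and 17.2 against 22.6 and 18.7 CPM (0.11 ± 0.20 SE). Each of these 4 differences was smaller than or about as large as its standard error.

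The repeats pair the libraries. In edgeR with the experimental repeat added as a block, there were calls for 4 of the 26 tests in main cell types (background 1.22%) and 2 of the 53 in sub-clusters (background 0.540%), all lower in TRα1+m. This fit leaves 1 residual degree of freedom per gene. The calls were Trhde in astrocytes as a whole (log2 fold change -1.02 ± 0.14 SE, adjusted p = 6.58e-07), Tshr in the same cluster (-0.69 ± 0.15, 0.0177), Cga in the microglia and macrophage cluster (-1.28 ± 0.22, 1.43e-05) and Trhde in oligodendrocyte progenitors (-1.10 ± 0.29, 0.0344). Tanycytes held 81.3% of the Trhde UMIs and 90.2% of the Tshr UMIs of the astrocyte cluster, so its calls and those of its tanycytes share nuclei. In astrocytes in the narrow sense the log2 difference without a block was 0.19 ± 0.48 SE for Trhde and 0.09 ± 0.45 SE for Tshr. Tanycytes made up 17.0 and 17.3% of the nuclei of the astrocyte cluster in WT and 14.9 and 13.2% in TRα1+m, and the part of this share in the calls of the whole cluster was not tested. Of the Cga UMIs of the microglia and macrophage cluster, 96.5% lay in its 83 Cga nuclei. Without them Cga was at 18.2 and 18.7 CPM in WT and 19.9 and 17.8 CPM in TRα1+m. The nuclei removed had been chosen by their Cga UMIs, which caps Cga in every nucleus left, in both genotypes. Similar levels after this removal follow largely from the choice and cannot show where the difference lay. The part of the number of Cga nuclei in the Cga call was not tested. In the sub-clusters the calls were Trhde in tanycytes (-1.09 ± 0.16, 4.98e-07) and Trhde in Glutamatergic Neurons_2 (-0.44 ± 0.11, 0.0305). In the progenitors, known as OPCs, Trhde stood at 28.8 and 37.8 CPM in WT and 14.9 and 16.7 CPM in TRα1+m, from 39, 50, 24 and 22 UMIs. In Glutamatergic Neurons_2 it stood at 95.9 and 92.0 CPM against 83.2 and 62.0 CPM. The genotypes did not overlap in either, and the share of all genes with such a separation was not counted there. In tanycytes 14.1% of all genes tested had both TRα1+m libraries below both WT libraries.

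In tanycytes Trhde stood at 264 and 387 CPM in the WT libraries of repeats 1 and 2 and at 113 and 194 CPM in the TRα1+m libraries, which was 2.33-fold lower in repeat 1 and 1.99-fold lower in repeat 2. Both TRα1+m values were below both WT values. Tshr stood at 427 and 498 CPM against 335 and 294 CPM (1.28-fold and 1.69-fold lower), again without overlap. Of all genes tested in tanycytes, 14.1% had both TRα1+m libraries below both WT libraries. Without a block the log2 difference was -1.08 ± 0.32 SE for Trhde (unadjusted p = 0.0136 and adjusted p = 1.00, edgeR) and -0.54 ± 0.21 SE for Tshr (0.0404 and 1.00). With the block Trhde ranked 6 of 11217 genes by p, 54 genes were called and 31 of them were lower in TRα1+m (0.276% of genes), and Tshr missed the threshold (adjusted p = 0.0641). A Trhde UMI was found in 31.2 and 41.9% of WT tanycytes and in 16.9 and 29.5% of TRα1+m tanycytes. In the 407 and 386 WT and 419 and 259 TRα1+m tanycytes that reached 1000 UMIs, thinned to that depth, the shares were 19.7 and 24.9% against 8.35 and 14.7%. The antisense 4930473D10Rik stood at 18.3, 23.6, 4.01 and 13.5 CPM in the same order of libraries, and Gm15723 at 18.3, 12.8, 7.02 and 3.38 CPM. For both, as for Trhde, the TRα1+m libraries lay below the WT libraries, from 53 and 39 UMIs in all. Neither passed with the block (edgeR adjusted p = 0.269 and 0.326). Cep128 stood at 260, 163, 339 and 105 CPM and did not move with Tshr. The part of shared reads in the Trhde difference was not tested.

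The sub-cluster held nuclei with ependymal genes in shares that differed between libraries. The summed level of 5 ependymal markers was 1409 and 329 CPM in WT and 2032 and 431 CPM in TRα1+m, and that of 8 tanycyte markers 5852 and 8523 against 5182 and 10102 CPM. Among the tanycyte markers Fndc3c1 was at 161 and 657 against 45.1 and 171 CPM, lower in TRα1+m in each repeat, whereas Nnat and Col23a1 were not. In tanycytes without any ependymal UMI Trhde was at 358 and 493 CPM in WT and 163 and 231 CPM in TRα1+m, a ratio of 2.19 and 2.13 in the repeats, and Tshr at 501 and 496 against 344 and 281 CPM. In those with an ependymal UMI Trhde was at 178 and 177 against 80.1 and 128 CPM. A test without the nuclei that held 2 or more ependymal markers, chosen after seeing the data, gave a log2 difference of -1.11 ± 0.17 SE for Trhde with the block (adjusted p = 0.0268) and -0.63 ± 0.16 for Tshr (adjusted p = 0.456). Whether the difference in tanycytes was unlike that in other cells was also tested. Against Neurons_1 the interaction was -1.05 ± 0.42 SE for Trhde and -0.50 ± 0.22 SE for Tshr on the log2 scale, and neither passed (adjusted p = 1 for both, edgeR). Against astrocytes in the narrow sense it was -1.31 ± 0.91 SE for Trhde and -0.64 ± 0.31 SE for Tshr, and neither passed. In Neurons_1 Trhde stood at 170 and 136 CPM in WT against 160 and 142 CPM in TRα1+m (-0.08 ± 0.17 SE).

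**Figure D4:**
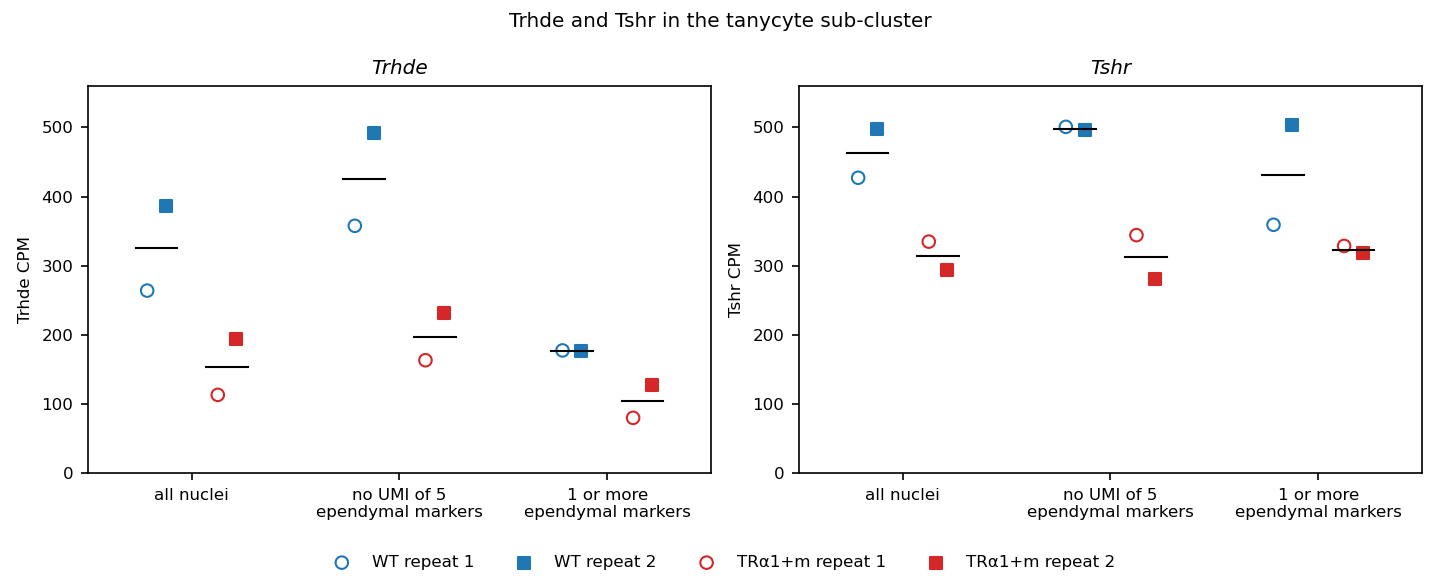
Trhde and Tshr in the tanycyte sub-cluster, in CPM by library, for all nuclei and for nuclei without or with UMIs of 5 ependymal markers (WT blue, TRα1+m red, lines are means of 2 libraries). Both TRα1+m points lay below both WT points for either gene in each of the 3 sets.

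The repeats differed more than the genotypes, in a contrast that was added after seeing the data. With the genotype in the fit, 10 of 26 member tests in main cell types passed between repeat 2 and repeat 1, with 16.8% of tests over all genes, and 16 of 53 in sub-clusters, with 15.3% over all genes. Trh was higher in repeat 2 in Glutamatergic Neurons_1 (log2 fold change 2.04 ± 0.10 SE, edgeR adjusted p = 6.43e-08) and MCH Neurons (1.07 ± 0.23, adjusted p = 0.000239). It was lower in repeat 2 in oligodendrocytes (-0.89 ± 0.20), astrocytes (-0.74 ± 0.17) and OPCs (-1.49 ± 0.32). Trh was also lower in Glutamatergic Neurons_2 (-1.10 ± 0.22) and Glutamatergic Neurons_3 (-0.90 ± 0.24), so that neuronal groups went both ways. Crh was lower in repeat 2 in astrocytes (-2.11 ± 0.60, adjusted p = 0.00611) and higher in GABA Neurons (1.41 ± 0.24) and Glutamatergic Neurons_3 (1.61 ± 0.38), and Crhr1 in Neurons_1 (0.69 ± 0.15). Cga (2.67 ± 0.22) and Tshb (3.11 ± 0.27) were higher in the microglia and macrophage cluster. Trhde was lower in Neurons_1 (-0.29 ± 0.07) and in astrocytes in the narrow sense (-0.95 ± 0.26), and higher in tanycytes (0.58 ± 0.16). A repeat differs in animals, dissection, nuclei preparation and depth, which cannot be told apart here.

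Genes transcribed together with Trh were sought by comparing the 830 Neurons_1 nuclei with 3 or more Trh UMIs with the 32459 Neurons_1 nuclei without a Trh UMI, as sums within each library and with the library as block. The positive nuclei were deeper, with a median of 5778 UMIs against 4350. They held more of the paraventricular regulators Sim1 and Otp than the other neurons, and of the neuropeptide genes tested 5 were higher and 9 lower. 1674 of 17488 genes passed in edgeR (9.57%), 792 higher and 882 lower. In data simulated for this comparison 55% of 2-fold and 91% of 4-fold changes were recovered. Their noise level was set by hand and not estimated from these sums, and no library effects were simulated. The recovery in the real comparison can therefore differ.

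The 10 largest increases, among genes with at least 10 CPM in the Trh nuclei, started with Ucn3, the urocortin that binds the second CRH receptor (log2 fold change 5.84 ± 0.34 SE, adjusted p = 3.88e-54, from 109 UMIs in the Trh nuclei). Ucn3 stood at 6.64, 26.7, 17.5 and 20.8 CPM in Trh nuclei and at 0.501, 0.113, 0.679 and 0.124 CPM in the others, in the order WT repeats 1 and 2, TRα1+m repeats 1 and 2. Sim2, a homologue of the paraventricular regulator Sim1, rose by 4.05 ± 0.33 and Sall3, a developmental transcription factor, by 3.04 ± 0.18. Asic4, of the acid-sensing channel family, rose by 3.88 ± 0.23, and Mtnr1a by 3.34 ± 0.33. The remaining 5 were the unnamed transcripts Gm28526, Gm12082, Gm27239, Gm27246 and Gm43948, with log2 fold changes between 3.30 and 4.79. The 5 lowest genes had 0 UMIs in the Trh nuclei. Against the floor of 3 counts over the group, 9030622O22Rik was at least 3.62-fold lower, and Fst, Gm20647, Gm26709 and Rep15 were at least 2.30-fold to 2.65-fold lower.

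Of 11 paraventricular regulators and inputs tested, 4 were higher and 1 lower. Sim1, which is required to form the paraventricular nucleus, stood at 328, 251, 324 and 284 CPM in Trh nuclei against 52.7, 45.8, 56.6 and 38.7 CPM in the others (2.63 ± 0.06 SE), and was detected in 70.2% against 11.8% of nuclei. Otp, a partner of Sim1 in the same lineage, rose by 1.56 ± 0.18. Adra1a and Arnt2 were the other 2, and Lepr, the leptin receptor gene, was lower (-0.75 ± 0.21). Arnt2 lost its call in 7 of the alternatives, among them those without WT repeat 1 (adjusted p = 0.298) or TRα1+m repeat 2 (0.147), and Lepr in 5, among them those without WT repeat 1 (0.104) or WT repeat 2 (0.109). Mc4r, a melanocortin input to TRH neurons, rested on 5 UMIs in the Trh nuclei and did not pass (-1.01 ± 0.67, adjusted p = 0.466). Of 7 prohormone processing genes 3 were higher, the convertase gene Pcsk2 at 697 CPM against 401 over all libraries (0.90 ± 0.05), the glutaminyl cyclase gene Qpct (0.45 ± 0.09) and Scg5 (0.20 ± 0.05), the last not without TRα1+m repeat 2 (adjusted p = 0.173). Pcsk1 (0.06 ± 0.10), Cpe (0.03 ± 0.05) and Pam (-0.02 ± 0.05) did not pass.

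Of 11 genes of transmitter identity 1 was higher and 6 were lower. Slc17a6, the vesicular glutamate transporter gene, was higher (0.56 ± 0.06) and detected in 66.1% against 36.9% of nuclei. Among the lower genes were the inhibitory markers Slc32a1 (-1.63 ± 0.11), Gad1 and Gad2, and Hdc (-2.42 ± 0.28) and Ddc, enzymes of histamine and monoamine synthesis. Of 26 neuropeptide genes tested 5 were higher and 9 lower. The first group was led by Ghrh (1.61 ± 0.19), the tachykinin gene Tac1 (548 ± 423 against 185 ± 118 CPM), Bdnf (1.33 ± 0.10) and Adcyap1 (1.25 ± 0.07), and the second by Pomc (-3.53 ± 0.22) and Npvf (-2.71 ± 0.35). Without WT repeat 1 neither Ghrh (adjusted p = 0.441) nor Tac1 (0.0635) passed, and Ghrh did not pass in the bias-adjusted edgeR fit (0.169). Of 10 genes of the CRH family and glucocorticoid feedback 3 were higher, namely Ucn3, Crhr2 (0.95 ± 0.29) and the mineralocorticoid receptor gene Nr3c2 (0.43 ± 0.06), and Pomc was lower. Crhr2 did not pass without WT repeat 1 (adjusted p = 0.0525) or WT repeat 2 (0.152). Of 12 genes of thyroid hormone action 1 was higher, Rxrg (0.53 ± 0.17), and 1 lower, the transporter gene Slc16a10 (-0.97 ± 0.16). Rxrg lost its call in 9 alternatives, with each of the 4 libraries left out among them (adjusted p = 0.0573 to 0.182), and within Glutamatergic Neurons_1 neither Rxrg (0.186) nor Slc16a10 (0.277) passed. The receptor genes Thra (-0.20 ± 0.08, adjusted p = 0.102) and Thrb (-0.17 ± 0.06, adjusted p = 0.0615) did not pass. The medians of the log2 fold changes were 0.06 for prohormone processing, 0.12 for the paraventricular list, -0.19 for thyroid hormone action, -0.16 for the CRH family, -0.82 for transmitter identity and -0.81 for neuropeptides, beside -0.01 over all genes.

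The other axis genes differed between Trh nuclei and their neighbours too. Trhde was higher, with 321, 259, 275 and 269 CPM in Trh nuclei against 163, 128, 154 and 134 CPM (0.98 ± 0.06 SE, adjusted p = 4.50e-60). Trhr did not pass (18.7 ± 2.59 against 19.4 ± 1.92 CPM, -0.05 ± 0.16 SE, adjusted p = 0.937). Crh was lower (-2.33 ± 0.60, adjusted p = 0.00216, from 4 UMIs), as was Crhr1 (-0.93 ± 0.27, adjusted p = 0.00793), and no nucleus reached 3 UMIs of both Trh and Crh. With DESeq2 neither passed (adjusted p = 0.123 for both). Crh did not pass without WT repeat 2 (0.154) or TRα1+m repeat 2 (0.0606), and Crhr1 did not without WT repeat 2 (0.0651), without TRα1+m repeat 2 (0.0665) or in nuclei of 5 or more Trh UMIs (0.0782). Within Glutamatergic Neurons_1 alone, where 709 of the Trh nuclei lay, fewer calls were made (907). There Sim1 (0.90 ± 0.06), Otp (0.95 ± 0.19), Ucn3 (4.62 ± 0.39), Tac1 (1.64 ± 0.09) and Trhde (0.69 ± 0.07) were higher as well, while Slc17a6 (-0.16 ± 0.06, adjusted p = 0.151) and the inhibitory Slc32a1 (-0.26 ± 0.19, adjusted p = 0.549) did not pass.

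**Figure D5:**
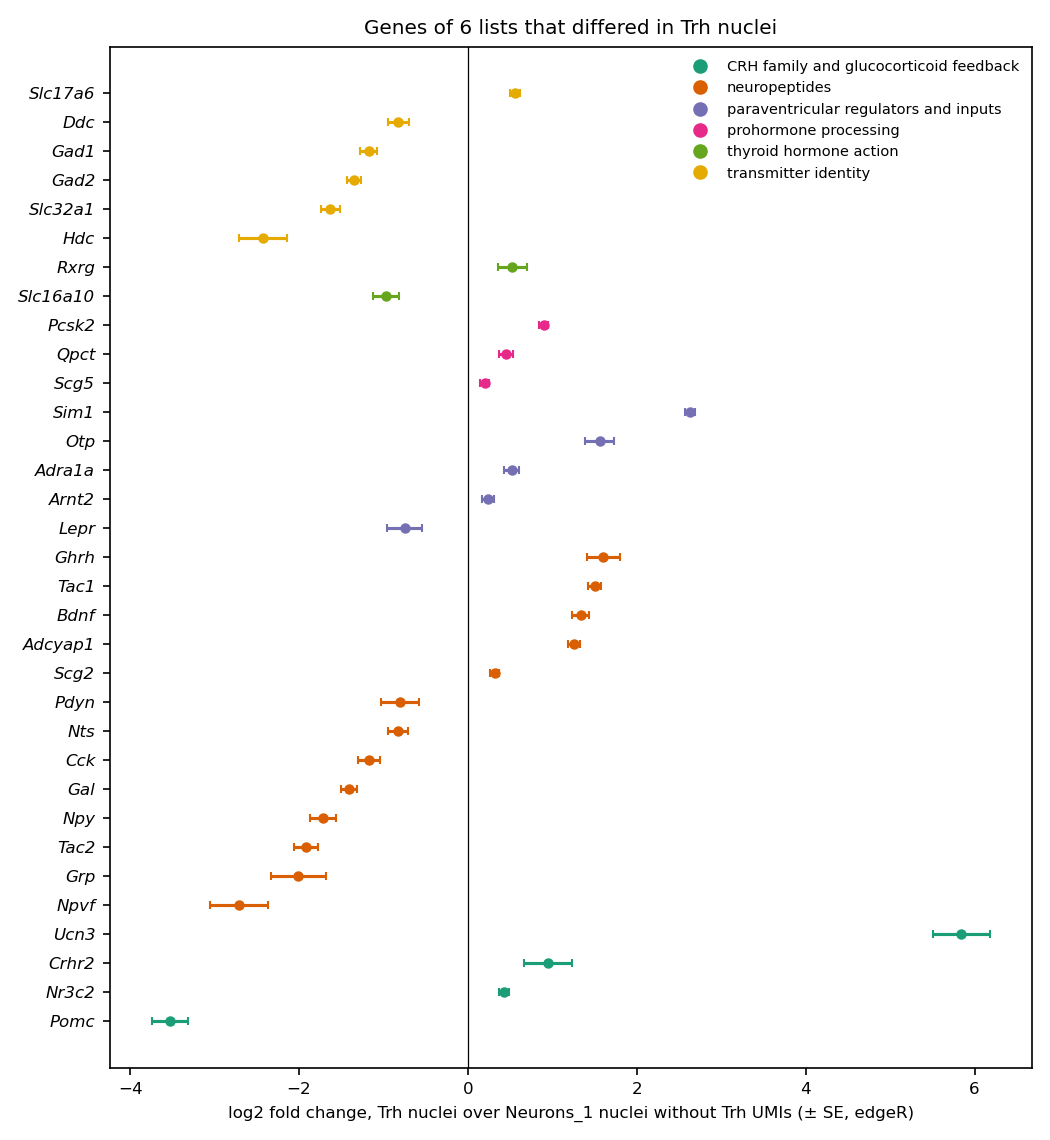
Log2 fold changes (± SE, edgeR) in Trh nuclei over Neurons_1 nuclei without Trh UMIs, for genes of 6 lists that passed an adjusted p of 0.05, coloured by list. Ucn3 at 5.84 and Sim1 at 2.63 lay farthest to the right, and Pomc at -3.53 farthest to the left.

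The 41 Crh nuclei of Neurons_1 were too few for a test, with fewer than 10 in 2 libraries, and are described. They numbered 5 and 23 in the WT libraries and 1 and 12 in the TRα1+m libraries, so that most came from repeat 2. Their median depth was 6761 UMIs against 4373 in neurons without Crh. GABA Neurons held 23 of all 42 Crh nuclei, Glutamatergic Neurons_1 10 and Glutamatergic Neurons_3 5. A Gad1 or Gad2 UMI was found in 25 of the 41 and a Slc17a6 UMI in 14, and Sim1 in 7. Levels were summed over all libraries here, and the part of the repeat in them was not tested. Nts was at 2223 CPM over the Crh nuclei against 41.3 CPM in the other neurons, Cartpt at 2286 against 132, Gal at 739 against 123, Vgf at 722 against 103 and Lepr at 99.0 against 14.9 CPM. These peptide genes were found in 26 (Nts), 22 (Cartpt) and 26 (Gal) of the 41 nuclei. No UMI of Trhr or Crhbp, the CRH-binding protein gene, was found in them. In neurons without Crh the shares with a UMI were 7.07 and 3.01%, which would be few nuclei among 41.

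Genes of the 6 lists were also tested between the genotypes over 5 main cell types and 14 sub-clusters. A single test passed without a block, Ddc in oligodendrocytes (log2 fold change 2.42 ± 0.18 SE, edgeR adjusted p = 0.0119), 1 of 153 tests of transmitter genes, and DESeq2 called 1 test of that list as well. None of the other lists had a call with edgeR or DESeq2, and tests with an unadjusted p under 0.05 in edgeR were 11 of 187 for thyroid hormone action (5.88%), 6 of 124 for the CRH family (4.84%), 16 of 385 for neuropeptides (4.16%), 3 of 126 for prohormone processing (2.38%) and 2 of 140 for paraventricular regulators (1.43%), beside 1.87% over all genes. With the repeat as block 0.743% of all tests were called. Of the 187 tests of thyroid hormone action 2 were then higher in TRα1+m and 5 lower (3.74%). The higher ones were Crym, which binds thyroid hormone in the cytosol, in tanycytes (29.0 and 48.3 against 43.1 and 118 CPM, 1.02 ± 0.25, adjusted p = 0.0266) and the transporter gene Slco1c1 in MCH Neurons. Thrb in oligodendrocytes (-1.06 ± 0.19, adjusted p = 2.47e-05) was the most negative. Thra, the gene of the mutated receptor, was among the lower ones in GABA Neurons (-0.44 ± 0.08, edgeR adjusted p = 0.00234). It was also lower in MCH Neurons (-0.64 ± 0.17, adjusted p = 0.0388). Nuclei under the MCH label had a median depth of 1855 and 1481 UMIs in WT and 3840 and 1499 UMIs in TRα1+m. The part of this unlike depth, or of an unlike mixture of nuclei, in the calls under that label was not tested. In the CRH family 3 of 124 were higher and 8 lower (8.87%). The lower ones were Pomc in 5 and Avp in 3 cell groups. Both genes are on the neuropeptide list too, so that these 8 calls are counted again there. Of 385 neuropeptide tests 6 were higher and 25 lower (8.05%), and of 126 prohormone processing tests 3, all Pcsk2, were lower (2.38%). Among the neuropeptide calls were Oxt in OPCs and oligodendrocytes, cells not known to make oxytocin. Others were Pomc in the microglia and macrophage cluster and in astrocytes in the narrow sense. The part of free RNA in such calls was not tested. With the block 10 of 140 tests of paraventricular regulators had an unadjusted p under 0.05 (7.14%, against 8.55% over all genes) and none passed. In tanycytes Dio2, the activating deiodinase gene, did not exceed 44.0 CPM and did not pass with or without the block.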

How the data were processed

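Single-nucleus libraries of WT and TRα1+m hypothalamus were analysed from the deposited count matrices. The authors generated these UMI counts with Cell Ranger 5.0.1 on mm10, introns included, and kept nuclei with at least 900 counts and 700 features, at most 5% mitochondrial reads and a doublet score below 0.18. Doublet scoring was not repeated. Clusters and sub-clusters were taken from the deposited annotation. Groups follow the genotype labels.

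Counts were summed per library and cell group with at least 10 nuclei in every library. The non-neuronal cluster met this rule, with 57 and 36 nuclei in WT and 80 and 34 in TRα1+m, and was left out of the tests and of the order of levels. Two-sided robust quasi-likelihood F-tests were made in edgeR 4.0.16 under R 4.3.3, after filterByExpr and TMM scaling, at a Benjamini-Hochberg adjusted p of 0.05 within a cell group. Genotype was the only term of the model. The study had compared nuclei by a rank sum test, which counts each nucleus as a replicate. Other settings were RLE scaling, DESeq2 1.42.0, all genes unfiltered, a block for the repeat, leaving out each library, other UMI thresholds, thinning to 2000 UMIs and, for the Trh comparison, nuclei of at least 4000 UMIs or of the main sub-cluster. The repeats pair the libraries by the labels and the study's methods, and deviations of same-repeat libraries correlated with r of 0.313 to 0.668 over 19 groups. Scripts were tested on simulated data. Shares of nuclei were compared by exact permutation. Python 3.11.15 with numpy 2.4.6 and pandas 2.3.3 was used.

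Named genes were the 8 members, list genes that passed between genotypes, the 5 genes most like each member with at least 10 CPM in some group, and, in the Trh comparison, the 10 highest and 5 lowest genes and examples of the lists. Members and lists were chosen with earlier results of these data known. P-values of the genotype tests measure the spread between pools of 3 mice, and the pools of a genotype also differed in experimental repeat. With a block they measure the spread that is left after the repeat or the library is fitted. Gene positions came from GENCODE M21, which held 32235 of the 32285 deposited identifiers. Values of some genes that the rules would name are not reported here, and these genes stay in the counts and sums of the lists.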

Additional observations from a re-analysis of the deposited data

How the results depend on the processing

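Between genotypes, 0 of 26 member tests in main cell types and 0 of 53 in sub-clusters were called, and the counts stayed at 0 with RLE factors, DESeq2 and a bias-adjusted fit that was chosen after seeing the data. With the repeat as block, the pairing of the design, they were 4 and 2. Without the filter on low counts 1 call was made in sub-clusters (Cga in CART Neurons_1). Leaving out a library gave 0 to 1 call in main cell types, Tshb in OPCs without TRα1+m repeat 1 and Cga in the microglia and macrophage cluster without TRα1+m repeat 2 (log2 difference -3.55), and 0 in sub-clusters. The log2 difference of Cga in that cluster reversed to 0.44 without WT repeat 2, and that of Tshr to 0.36 without Cga nuclei, a setting chosen after seeing the data, and neither passed. In that setting with the block, Tshb was called higher in TRα1+m (edgeR adjusted p = 0.000554). It rested on 0 and 4 UMIs in WT and 13 and 61 in TRα1+m, and the 61 came from a single nucleus. The log2 ratio of shares of nuclei with 3 or more UMIs, TRα1+m over WT, was 0.15 for Trh (-0.74 to 0.90 when a library was left out), -0.77 for Crh (-4.06 to 0.83) and -0.85 for Cga (-3.01 to 0.15), which sets a single repeat of one genotype against both repeats of the other. The sign became negative for Trh without WT repeat 1 (-0.35) or TRα1+m repeat 2, and positive for Crh without TRα1+m repeat 1 (0.16) or WT repeat 2 and for Cga without WT repeat 2. Within each repeat the sign was that of the full comparison for all 3 genes, and with the block, which keeps the pairing, the ratios were 0.14, -0.82 and -0.89. Thresholds of 2 or 5 UMIs, thinning and other denominators kept the direction. In Trh nuclei 1674 genes were called, 907 within Glutamatergic Neurons_1, 898 with DESeq2 and 1067 to 1720 with a library left out, with the lowest count without TRα1+m repeat 2. Of 504 values of 46 genes followed there, 447 kept direction and call, 54 lost the call and 3 changed sign, all within Glutamatergic Neurons_1 (Slc17a6 -0.16, Ddc 0.43, Pdyn 0.082). The cause of these changes was not tested. The planned test of Crh nuclei and its alternatives were not run because 2 libraries held fewer than 10 such nuclei. Depth limits Crh, Tshb and Cga outside the cell groups named for them, where a level rested on a few UMIs per library.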
